A study of Mus musculus with 60 samples.

Results

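Lipoprotein lipase control was followed through 7 genes, chosen by symbol, in bulk RNA-seq of 2 tissues, the liver and the inguinal white fat pad, of mice with diet-induced obesity. All 7 symbols (Lpl, Lipc, Gpihbp1, Lmf1, Angptl4, Angptl8 and Vldlr) were found among the 54343 rows of each of 4 tables. Each table held 1 tissue of 1 mouse line and 15 libraries, 5 in each of 3 groups. In the Glp1r line, Glp1rfl/fl mice received vehicle or the peptide-antibody conjugate mGIPR-Ab/P1, and Glp1rWnt1-/- mice received vehicle. In the Gipr line, Giprfl/fl mice received vehicle or mGIPR-Ab/P1, and GiprSyn-/- mice received vehicle. The groups are called vehicle, conjugate and knockout, and each conjugate or knockout group was compared with the floxed vehicle group of its own line and tissue. The labels name the knockouts for Wnt1 and Syn and do not spell out the drivers or the cells that lost the receptor. No knockout group received the conjugate. Dose, duration, sex and age were not given in the sources used here.

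Lipoprotein lipase, encoded by Lpl, is secreted by parenchymal cells such as adipocytes, folds with the help of the endoplasmic reticulum chaperone Lmf1, and is carried to the capillary lumen by the endothelial protein Gpihbp1. There it hydrolyses the triglyceride of chylomicrons and very low density lipoproteins, and the fatty acids enter the tissue. Angptl4, induced by fasting and by PPAR factors, inactivates the lipase in adipose tissue. Angptl8, induced by feeding and insulin, binds Angptl4 in adipose tissue. Vldlr, the receptor of very low density lipoproteins, binds triglyceride-rich particles at the cell surface, and Lipc, hepatic lipase, acts on remnants and HDL in the liver.

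Values were FPKM, which are scaled to transcript length, so levels of different genes within a table can be set side by side. Fold changes were taken on log2(FPKM + 1), with the standard error of a limma model, and understate the change of low genes. A gene passed the test, or was called, where its p, adjusted by Benjamini-Hochberg over all genes tested in its table, was under 0.05. Genes were tested where at least 5 of the 15 libraries reached 1 FPKM, which kept 7 of the 7 genes in each liver table and 6 of 7 in each adipose table. The depth estimated from the lowest values was 31.8 M to 57.3 M fragments (M for mega) in liver and 29.9 M to 64.4 M in adipose tissue. In Glp1r liver the conjugate libraries, at 31.8 M to 35.6 M, lay below all vehicle libraries, at 47.6 M to 54.8 M. The markers of the labelled tissues were present, with all 8 hepatocyte markers at or above 1 FPKM in every liver library and all 8 adipocyte markers in every adipose library. Glp1r was at or below 0.356 FPKM in every library of both tissues, and Gipr at or below 0.0149 in liver. Gipr in Gipr adipose tissue was 5.02 to 7.46 FPKM in vehicle and 2.57 to 5.37 in knockout libraries, which overlap, so these tissues give no clear check of the deletions. In bulk tissue, fewer cells of a type and less RNA per cell cannot be told apart.

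The 2 tissues held the 7 genes at very different levels. The tissue tables may have been normalized separately, so levels are set side by side and no test was made between them. Lpl averaged 3371 ± 948 FPKM in the vehicle libraries of Glp1r adipose tissue (SD, n = 5) and 3.07 ± 1.09 in Glp1r liver. In the Gipr line the same means were 2759 ± 204 and 8.98 ± 3.28 FPKM. Vldlr was 27.5 times and 21.5 times higher in fat than in liver by these means, in the Glp1r and the Gipr line. The ratios were 18 and 9.98 for Gpihbp1, and 5.04 and 7.40 for Angptl4. Lipc went the other way, at 54.0 ± 7.55 and 60.8 ± 8.73 FPKM in vehicle liver and never above 0.482 FPKM in an adipose library. Lmf1 was about level between the lines, at 21.1 and 19.3 FPKM in liver and 10.6 and 9.51 in fat. Angptl8 was the one gene of the 7 whose vehicle ranges in the tissues overlapped, in both lines.

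**Figure D1:**
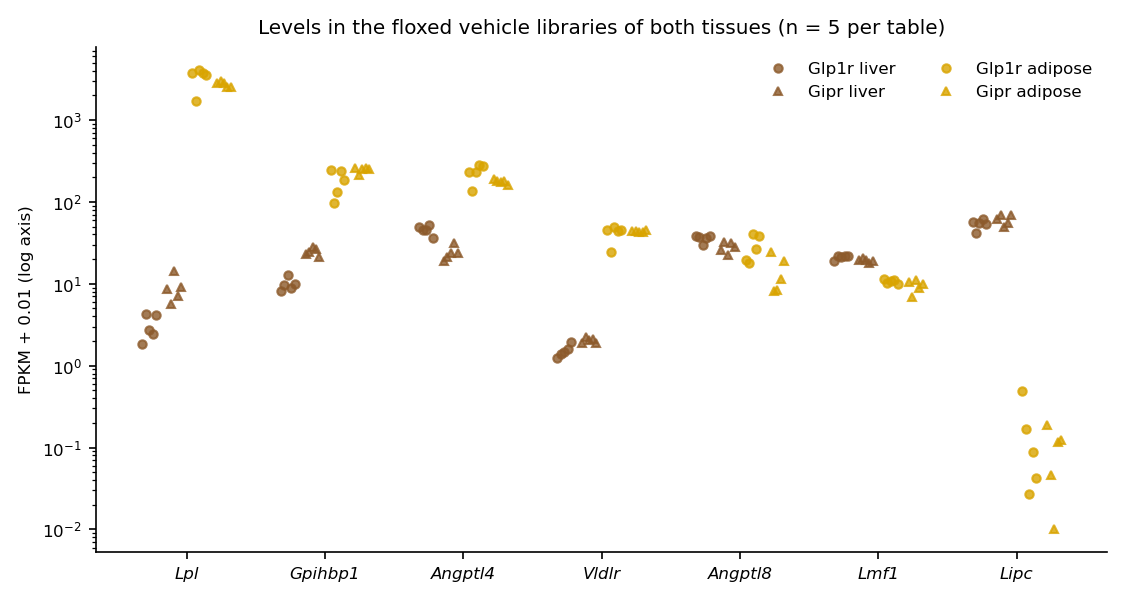
FPKM of the 7 genes in the floxed vehicle libraries, on a log axis after adding 0.01, with liver in brown and inguinal fat in yellow and 1 point per library. Lpl separates the tissues most, Lipc lies near 0 in fat, and the Angptl8 points of both tissues overlap.

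Within a tissue the order of levels was close in both lines at its ends. In vehicle fat, Lpl was first in both lines, above every library of the next gene. Angptl4 (229.9 ± 57.8) and Gpihbp1 (178.8 ± 63.6 FPKM) overlapped in Glp1r fat, whereas Gpihbp1 (245.2 ± 19.6) lay above Angptl4 (176.6 ± 11.6) in Gipr fat with no overlap. Vldlr, Angptl8, Lmf1 and Lipc followed in that order, with Vldlr and Angptl8 overlapping in the Glp1r line and Angptl8 and Lmf1 in the Gipr line. In vehicle liver, Lipc was first and Lpl and Vldlr were last in both lines. Lipc overlapped Angptl4 and Lpl overlapped Vldlr in the Glp1r line, while in the Gipr line neither overlapped the next gene. Gpihbp1 was 8.26 to 12.8 FPKM in Glp1r vehicle liver and 21.1 to 27.8 in Gipr vehicle liver. The mean of log2(FPKM + 1) over 10 endothelial markers, called their score, was 1.60 to 2.0 in the first and 2.46 to 2.72 in the second. The lines are in separate tables and this difference was not tested.

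More of the 7 genes were called in adipose tissue of the Gipr line than in any other tissue and line. Lpl, Vldlr and Angptl8 fell both in conjugate-treated Giprfl/fl mice and in GiprSyn-/- mice, which makes 3 of 6 genes tested in each contrast. Of all genes tested, 2.76% fell in the conjugate contrast and 5.67% in the knockout contrast. The same vehicle libraries enter both contrasts, so the contrasts are not independent and their values are given side by side. In this fat, conjugate replicate 5 and knockout replicate 5 carried library numbers from 20386 upward, here called the higher library numbers. No vehicle library did. Their estimated depths were 56.7 M and 64.4 M, against 30.6 M to 39.3 M in vehicle. What the numbers stand for is not given in the sources used here.

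Lpl was 2847, 3007, 2848, 2548 and 2547 FPKM in the 5 vehicle libraries of Gipr fat. It was 1016, 1907, 1656, 1597 and 1190 in the conjugate libraries and 1674, 1620, 1716, 2351 and 1101 in the knockout libraries. Every treated or knockout library lay below every vehicle library. The log2 fold change was -0.94 ± 0.20 with the conjugate (limma, adjusted p = 0.0166) and -0.74 ± 0.20 in the knockout (adjusted p = 0.0305). The knockout call was lost in 8 of the 10 fits that left out 1 library, with adjusted p up to 0.0726, while the log2 fold change stayed between -0.87 and -0.60. The knockout call was also lost without the higher library numbers (-0.60, adjusted p = 0.0691).

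Vldlr was 43.9, 44.2, 43.4, 42.5 and 45.0 FPKM in the vehicle libraries, the tightest group of the 6 in fat. It was 11.6, 32.2, 26.2, 20.7 and 16.8 with the conjugate and 17.7, 21.7, 23.3, 30.8 and 12.6 in the knockout. Neither group overlapped vehicle. The log2 fold change was -1.07 ± 0.24 in both contrasts (limma, adjusted p = 0.0179 and 0.0131). Without conjugate replicate 5 the conjugate value was -1.01 with an adjusted p of 0.0511.

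Angptl8 was 24.4, 8.14, 8.41, 11.4 and 18.8 FPKM in vehicle, 1.96, 7.73, 5.15, 0.718 and 1.99 with the conjugate, and 0.842, 3.40, 4.23, 0.673 and 1.83 in the knockout. The groups did not overlap, although the highest conjugate library came close to the lowest vehicle libraries. The log2 fold change was -1.87 ± 0.45 with the conjugate (limma, adjusted p = 0.0239) and -2.28 ± 0.45 in the knockout (adjusted p = 0.0071). The conjugate call was lost in 5 of the 10 fits that left out 1 library, with adjusted p up to 0.0663 and a log2 fold change from -2.17 to -1.58. The knockout call held in all 10. Without the higher library numbers the conjugate call was lost too (-1.78, adjusted p = 0.0647).

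The remaining genes of Gipr fat did not pass the test. Angptl4 averaged 176.6 ± 11.6 FPKM in vehicle, 138.7 ± 30.6 with the conjugate and 128 ± 26.7 in the knockout. Its log2 fold changes were -0.38 ± 0.17 (limma, adjusted p = 0.20) and -0.49 ± 0.17 (adjusted p = 0.0789), and the knockout libraries lay below all vehicle libraries. Gpihbp1 had values of -0.12 ± 0.20 and -0.32 ± 0.20, and Lmf1 of 0.12 ± 0.17 and -0.03 ± 0.17. Groups without overlap were thus seen for 3 of 6 genes with the conjugate and 4 of 6 in the knockout, against 11.6% and 11% of all genes tested.

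Markers of other cells moved in the same fat samples. Of all genes tested, 6.61% rose and 5.67% fell in the Gipr knockout. In the Gipr knockout, 6 of 7 B cell markers rose, with scores of 1.06 to 4.78 in vehicle and 3.74 to 6.46 in knockout libraries. The B cell score was 1.98 to 6.27 with the conjugate, where no marker of the list passed the test. Of the 6 lipid-associated macrophage markers, 4 fell in the knockout, with scores of 4.33 to 5.29 in vehicle and 2.93 to 3.88 in the knockout. Skeletal muscle markers scored 2.40 to 5.65 in vehicle, 2.15 to 6.25 with the conjugate and 1.08 to 4.14 in the knockout, and none of that list passed. No marker of these lists was at 0 throughout a group. The part of these cells in the changes of Lpl, Vldlr and Angptl8 was not tested beyond leaving out libraries whose B cell score exceeded 5. Without them Lpl had a log2 fold change of -0.78 with the conjugate, still called, and -0.56 in the knockout, no longer called (adjusted p = 0.0773). Angptl8 was at -1.78 with the conjugate, no longer called (adjusted p = 0.0526), and at -2.05 in the knockout, still called (adjusted p = 0.048). Vldlr kept its call in both contrasts.

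Of the 8 adipocyte markers, 1 rose and none fell with the conjugate, and 1 rose and 1 fell in the knockout. Over all genes tested, 4.26% rose and 2.76% fell with the conjugate, and 6.61% rose and 5.67% fell in the knockout. Cfd, the adipokine adipsin, rose in both (2.67 ± 0.59 and 2.89 ± 0.59), and Lep, the hormone leptin, fell in the knockout (-1.66 ± 0.37). Among 10 endothelial markers, Cdh5, a junction cadherin, fell in the knockout (-0.71 ± 0.18). The adipocyte score was 9.65 to 10.2 in vehicle, 9.77 to 10.4 with the conjugate and 9.58 to 10.4 in the knockout. Adipoq, an adipocyte hormone, averaged 1799 ± 204, 1814 ± 254 and 1857 ± 494 FPKM, and its log2 fold changes were 0.01 ± 0.19 in both contrasts. Lpl per Adipoq within a library, a ratio chosen with the values known, was 1.36 to 1.95 in vehicle, 0.626 to 1.09 with the conjugate and 0.728 to 1.12 in the knockout. Vldlr per Adipoq averaged 0.0246 in vehicle, 0.0118 with the conjugate and 0.0114 in the knockout. Both ratios were lower in every treated or knockout library than in any vehicle library. Angptl8 per Adipoq was 0.004282 to 0.01225 in vehicle and 0.0003525 to 0.004426 with the conjugate, which overlapped. It was 0.0003012 to 0.001962 in the knockout, below all vehicle libraries. In Glp1r fat Lpl per Adipoq was 1.494 to 1.765 in vehicle, 0.867 to 1.361 with the conjugate and 1.13 to 1.67 in the knockout. Vldlr per Adipoq was 0.0181 to 0.02432, 0.008628 to 0.01697 and 0.01184 to 0.01914, in the same order. Angptl8 per Adipoq was 0.009141 to 0.01792, 0.002216 to 0.00559 and 0.004665 to 0.008804. Each ratio lay below vehicle with the conjugate there, and in the knockout only that of Angptl8 did.

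**Figure D2:**
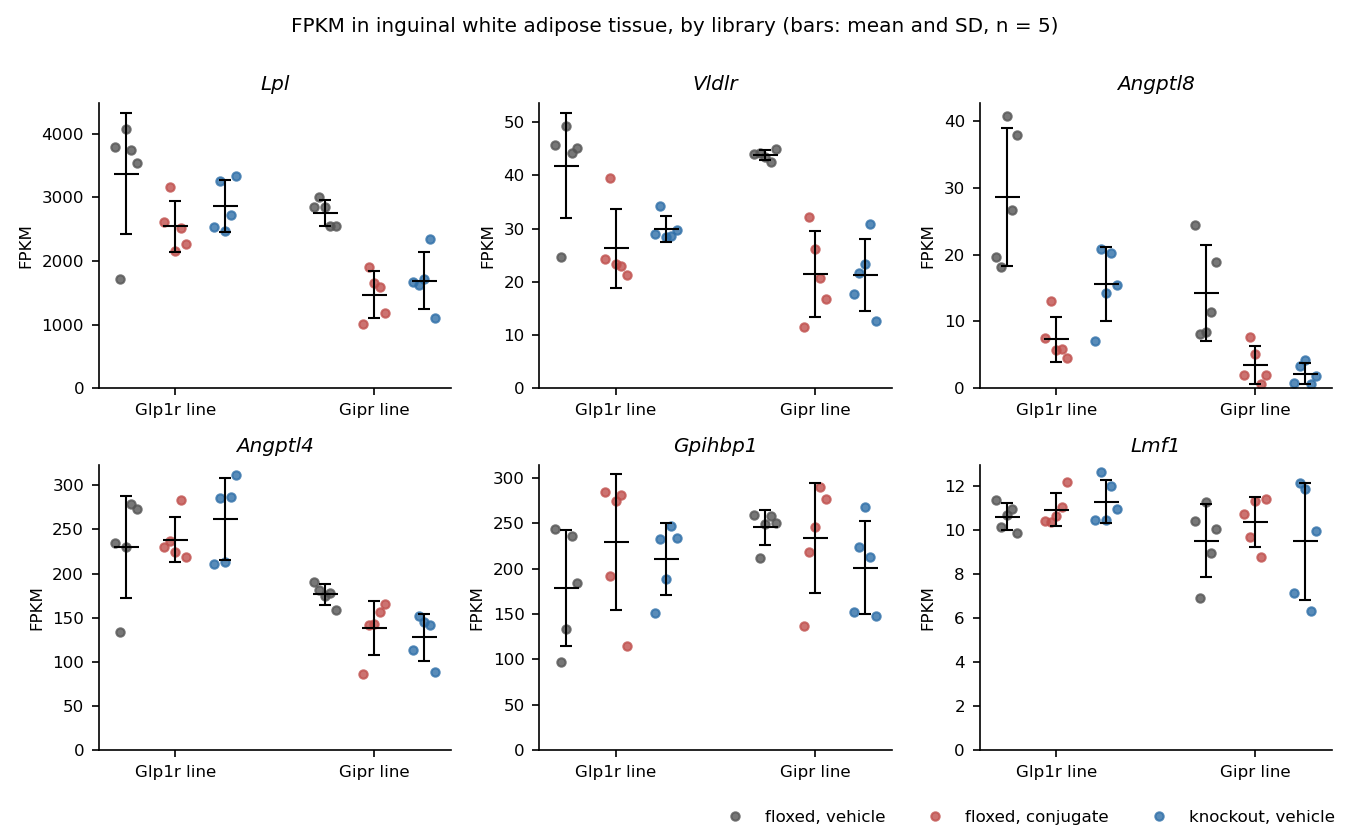
FPKM in inguinal white adipose tissue for 6 of the 7 genes, with 1 point per library and bars for the mean and SD of 5 libraries; Lipc, near 0 in fat, is left out. Lpl, Vldlr and Angptl8 lie lower in both Gipr-line groups than in vehicle, and Angptl8 lies lower with the conjugate in the Glp1r line, while Lmf1 is level.

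In adipose tissue of the Glp1r line, 1 of 6 genes fell with the conjugate, Angptl8, and 1.08% of all genes tested fell. Angptl8 was 19.6, 18.1, 40.7, 26.7 and 37.9 FPKM in vehicle and 7.55, 13, 5.73, 5.90 and 4.53 with the conjugate. All 5 conjugate libraries lay below the lowest vehicle library. The log2 fold change was -1.83 ± 0.31 (limma, adjusted p = 0.00955), and the call held in each of the 10 fits that left out 1 library. In Glp1rWnt1-/- fat Angptl8 was 7.07, 20.9, 14.2, 20.2 and 15.4 FPKM, which overlapped vehicle, with a log2 fold change of -0.85 ± 0.31 (adjusted p = 0.983).

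Vldlr and Lpl did not pass the test in Glp1r fat, and 1 vehicle library weighed on both. Lpl was 3783, 1711, 4077, 3744 and 3539 FPKM in vehicle and 2605, 3164, 2151, 2523 and 2265 with the conjugate. Vldlr was 45.7, 24.6, 49.3, 44.3 and 45.2 in vehicle and 24.2, 39.5, 23.4, 23.0 and 21.4 with the conjugate. Vehicle replicate 2 was the lowest vehicle library for both genes; its B cell score was 6.70, against 0.43 to 0.67 in the other vehicle libraries, and its adipocyte score of 9.25 was the lowest of the group. With all libraries the log2 fold changes were -0.36 ± 0.23 for Lpl (limma, adjusted p = 0.482) and -0.65 ± 0.18 for Vldlr (adjusted p = 0.0678). Without vehicle replicate 2 they were -0.59 (adjusted p = 0.0311) and -0.82 (adjusted p = 0.00595), both called. Without conjugate replicate 2, the highest conjugate library for both genes, Vldlr was at -0.80 (adjusted p = 0.015). Conjugate replicate 5 had a lipid-associated macrophage score of 7.89, against 3.93 to 4.77 in the other conjugate libraries, and leaving it out added no call.

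In Glp1r fat the other genes stayed within the spread of the libraries. With the conjugate Angptl4 had a log2 fold change of 0.09 ± 0.18, Gpihbp1 of 0.36 ± 0.29 and Lmf1 of 0.04 ± 0.07. In the Glp1r knockout no gene of the 7 and 0.0% of all genes tested passed in limma, with 593 of 12686 genes at an unadjusted p under 0.05. Vldlr had 28.4 to 34.2 FPKM in that knockout and a log2 fold change of -0.43 ± 0.18. Groups did not overlap for Angptl8 alone with the conjugate and for none of the 6 genes in the knockout, against 4.51% and 1.06% of all genes.

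Whether the conjugate acted differently on fat of the lines was tested as the difference of its effects. No gene of the 6 and 0.0% of all genes passed, with 436 of 12541 genes at an unadjusted p under 0.05. For Angptl8 the Gipr effect minus the Glp1r effect was -0.04, with a 95% interval from -1.21 to 1.13. The same difference was -0.58 for Lpl (interval -1.21 to 0.04) and -0.43 for Vldlr (-1.07 to 0.22). These intervals are wide, so a called change in one line and none in the other does not show a difference between the lines.

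Lpl, Vldlr and Angptl8 fell together in Gipr fat. The bases before the transcription starts of Angptl8 and Vldlr are shown for comparison, since the RefSeq table used has no entry for Lpl. The sequences are the 250 bases before the start in the RefSeq table on GRCm38.p6, on the plus strand. That of Angptl8 is at chr9:21835260-21835509, inside Dock6, a gene of the opposite strand. For Vldlr the table gives several starts, and the first is shown, at chr19:27216234-27216483. Capitals mark the 8-letter word TTGTGCAA, which resembles the binding motif of C/EBP factors and was picked after the letters had been seen.
Angptl8: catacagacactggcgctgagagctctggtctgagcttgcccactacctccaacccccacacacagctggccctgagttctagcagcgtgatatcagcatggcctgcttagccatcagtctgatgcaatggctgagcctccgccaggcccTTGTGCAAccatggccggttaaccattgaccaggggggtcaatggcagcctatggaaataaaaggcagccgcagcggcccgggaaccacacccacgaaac
Vldlr: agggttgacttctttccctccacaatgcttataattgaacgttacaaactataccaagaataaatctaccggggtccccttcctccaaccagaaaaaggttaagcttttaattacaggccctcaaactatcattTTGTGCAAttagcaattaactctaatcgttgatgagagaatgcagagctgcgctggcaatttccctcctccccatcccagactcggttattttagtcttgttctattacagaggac
The word begins 100 bases before the start in Angptl8 and 116 bases before it in Vldlr. Searched on both strands, it is present in 294 of 32851 promoters of this length, or 0.895%. Both windows hold it on the plus strand. Since the word was picked after these windows had been seen, the share does not measure how unusual this is. The E-box CACGTG, a word bound by several lipogenic and circadian factors, was in neither window on either strand, against 6.02% of all promoters. A match describes letters and is no evidence of binding, and the absence of a word says only that these letters are not in the window. The word was in neither window of Lipc, nor in that of Lmf1 or of the second Vldlr start. Lpl, Angptl4 and Gpihbp1 had no entry, so whether they hold the word was not examined.

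Since Angptl8 lies within Dock6, and whether the counting used strand is not given in the sources used here, Dock6 was read beside it. Dock6 averaged 13.3 ± 3.53, 13.7 ± 1.94 and 9.78 ± 2.87 FPKM in vehicle, conjugate and knockout fat of the Gipr line. In Glp1r fat it averaged 11.4 ± 3.03, 15.4 ± 4.14 and 14.6 ± 2.44 FPKM. The mean of Dock6 was not lower with the conjugate in either fat, and was lower in the Gipr knockout, where Angptl8 fell too.

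In liver of the Glp1r line, Lipc and Gpihbp1 rose with the conjugate, 2 of 7 genes against 5.68% of all genes tested that rose. Lipc was 57.0, 41.9, 55.0, 62.5 and 53.5 FPKM in vehicle and 76.2, 80.9, 72.8, 70.2 and 66.6 with the conjugate. Every conjugate library lay above every vehicle library. The log2 fold change was 0.44 ± 0.10 (limma, adjusted p = 0.0153) and the call held in each fit that left out 1 library. Gpihbp1 was 8.26, 9.77, 12.8, 8.76 and 9.93 FPKM in vehicle and 13.7, 11.4, 14.3, 11.8 and 12.5 with the conjugate, so the groups overlapped through vehicle replicate 3. Its log2 fold change was 0.34 ± 0.10 (adjusted p = 0.0428), and the call was lost in 8 of the 10 fits that left out 1 library, with adjusted p up to 0.0997.

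Depth followed the treatment in these libraries, and with estimated depth as a term neither gene passed. The log2 fold changes were then 0.68 for Lipc (adjusted p = 0.421) and 0.34 for Gpihbp1 (adjusted p = 0.715), no smaller than without the term. Depth and treatment cannot be told apart there. The endothelial score was 1.60 to 2.0 in vehicle and 1.71 to 2.01 with the conjugate.

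In liver of the Gipr line the conjugate values of Lipc were 71.2, 91.6, 79.8, 93.3 and 66.8 FPKM, against 61.6, 68.5, 49.1, 55.3 and 69.6 in vehicle. The groups overlapped, and the log2 fold change of 0.40 ± 0.11 did not pass (limma, adjusted p = 0.0611). It passed with the pancreas marker score as a term (0.41, adjusted p = 0.0111), without conjugate replicate 1 and without conjugate replicate 5. Pancreas markers ranged from a score of 0.06 to 9.79 over the libraries of Gipr liver. In the Gipr knockout Lipc averaged 73.7 ± 4.85 FPKM, against 60.8 ± 8.73 in vehicle. Its log2 fold change of 0.28 ± 0.11 did not pass (limma, adjusted p = 0.136), but passed with the pancreas term (0.42, adjusted p = 0.00595). Quantile normalization (adjusted p = 0.0307) and array weights (adjusted p = 0.0202) gave a call too. In Glp1r knockout liver Lipc was at 0.14 ± 0.10 (adjusted p = 0.699). The difference of the conjugate effect on Lipc between the lines was -0.05, with a 95% interval from -0.36 to 0.27. With the conjugate in Gipr liver no gene of the 7 and 4.34% of all genes passed. The difference between the lines in liver was called for 0.0% of all genes, with 624 of 10640 at an unadjusted p under 0.05.

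Vldlr was the low-level gene of the liver, and it fell in the Gipr knockout. It was 1.88, 2.21, 2.05, 2.13 and 1.91 FPKM in vehicle, 1.40, 1.83, 1.30, 1.36 and 1.86 with the conjugate and 0.446, 0.280, 0.517, 0.716 and 0.574 in the knockout. The 3 groups followed each other with no overlap from vehicle to conjugate to knockout. The log2 fold change in the knockout was -1.02 ± 0.09 (limma, adjusted p = 1.97e-05), and 0.249 was the ratio of the means. It was the 1 gene of the 7 called there, while 8.92% of all genes tested fell. Vldlr passed the filter at 1 FPKM through the vehicle and conjugate libraries, where it is higher. With the conjugate the log2 fold change was -0.26 ± 0.09 (adjusted p = 0.124).

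In Glp1r liver Vldlr was 1.24, 1.38, 1.48, 1.58 and 1.92 FPKM in vehicle and 0.383, 0.613, 0.995, 0.611 and 1.21 in the knockout. The groups did not overlap, but the log2 fold change of -0.53 ± 0.14 did not pass (limma, adjusted p = 0.187). Without knockout replicate 5 it was -0.62 (adjusted p = 0.0489). Vldlr reached 1 FPKM in 10 of the 15 Glp1r liver libraries, and of the knockout libraries only in replicate 5. It thus passed the filter through the vehicle and conjugate libraries, where it is higher. No gene of the 7 and 0.0% of all genes passed in that knockout, with 1048 of 10858 at an unadjusted p under 0.05. Groups without overlap were seen for 1 of 7 genes in each liver contrast. These were Lipc with the conjugate in the Glp1r line and Vldlr in the other contrasts. Among all genes tested the shares were 9.15% (Glp1r conjugate), 2.36% (Glp1r knockout), 4.93% (Gipr conjugate) and 12.3% (Gipr knockout).

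Angptl8 did not pass the test in liver, and its spread was wider in both other groups of the Gipr line than in vehicle. It was 25.5, 32.5, 22.7, 31.4 and 28.4 FPKM in Gipr vehicle liver, 4.32, 23.7, 18.3, 58.9 and 40.0 with the conjugate and 39.1, 10.7, 21.5, 35.4 and 7.5 in the knockout. The SD was 4.09, 21.0 and 14.2 FPKM, and both groups reached above and below the vehicle range. The conjugate libraries above that range, replicates 4 and 5, carried the higher library numbers, as did vehicle replicate 5. No knockout library of Gipr liver did. In Glp1r liver the SD was 3.63 FPKM in vehicle, 20.3 with the conjugate and 10.1 in the knockout. The conjugate SD rests on replicate 1, at 78.2 FPKM, while the other 4 libraries were at 27.4 to 41.3. No liver contrast of Angptl8 passed, with log2 fold changes from -0.53 ± 0.55 to 0.16 ± 0.26.

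Lpl in liver was low and variable. It was 8.67, 5.71, 14.3, 7.14 and 9.03 FPKM in Gipr vehicle liver and 5.99, 4.80, 5.67, 3.74 and 10.7 in the knockout. The high knockout library, replicate 5, had a macrophage score of 6.01, against 3.89 to 4.03 in the other knockout libraries. It also had the highest Gpihbp1 of its group, 26.6 FPKM against 16.5 to 18.7. Gpihbp1 in Gipr liver had log2 fold changes of -0.12 with the conjugate and -0.32 in the knockout, neither called (limma, adjusted p = 0.706 and 0.165). Without knockout replicate 5 the knockout value was -0.42 and called (adjusted p = 0.0298). No liver contrast of Lpl passed, and the log2 fold changes ran from -0.49 to -0.04. Angptl4 ran from -0.25 ± 0.16 to 0.11 ± 0.16, and none passed. Lmf1 had log2 fold changes of 0.02 ± 0.06 and 0.01 ± 0.06 in Glp1r liver and -0.03 ± 0.16 in the Gipr knockout. With the conjugate in Gipr liver Lmf1 was 9.25, 16.2, 14.6, 16.3 and 22.9 FPKM, against 17.8 to 20.4 in vehicle, and did not pass (-0.31 ± 0.16, adjusted p = 0.282). Without conjugate replicate 5, the highest of these, the Lmf1 value was -0.45 and called (limma, adjusted p = 0.0437).

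**Figure D3:**
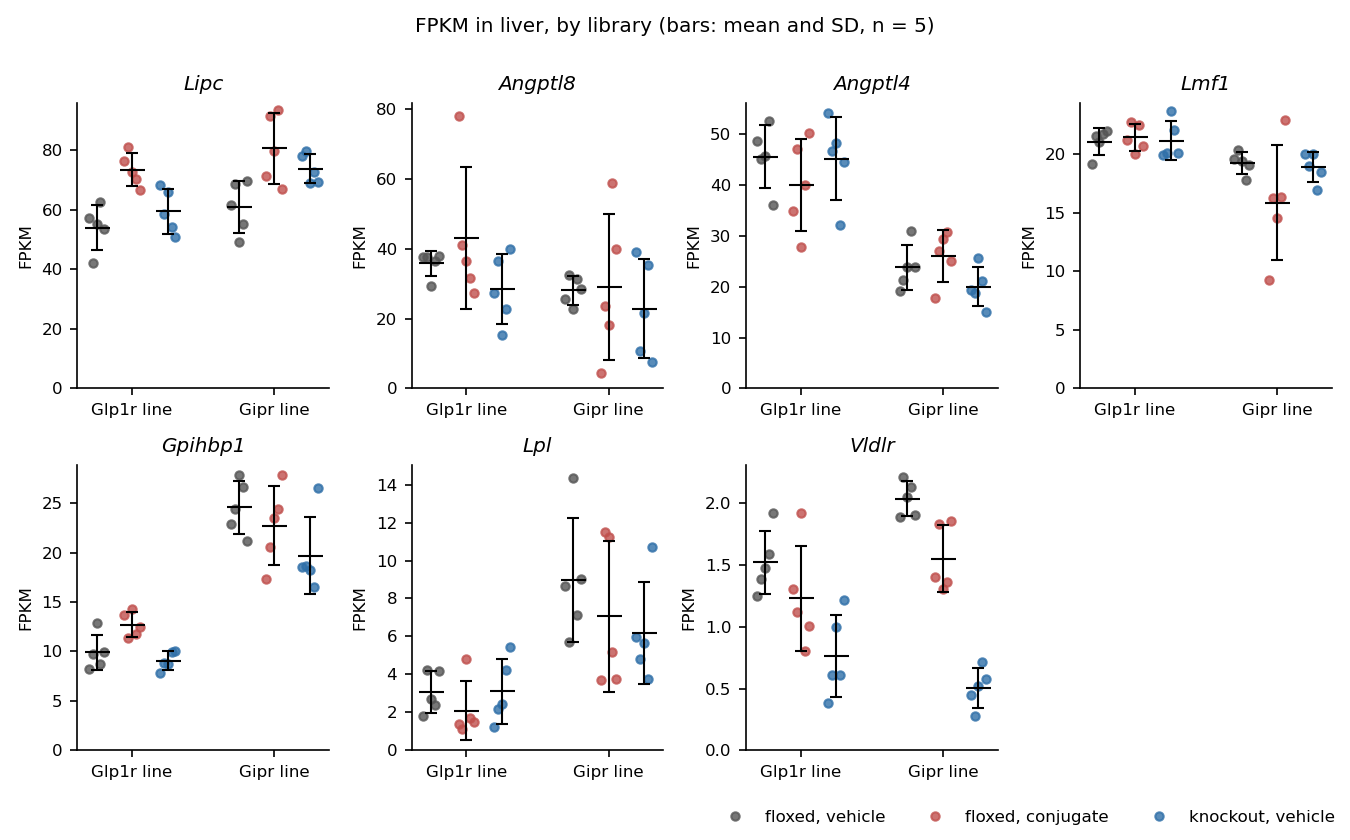
FPKM in liver for the 7 genes, with 1 point per library and bars for the mean and SD of 5 libraries. The mean of Lipc is above that of vehicle in the conjugate and knockout groups of both lines. Vldlr is lowest in the Gipr knockout, and Angptl8 spreads widely in the treated and knockout groups.

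The tissues were then compared through the difference of an effect in fat and in liver, which uses differences within a table. The labels do not say which liver and fat libraries share a mouse, and the fit took all libraries as independent. With the conjugate in the Glp1r line, Angptl8 differed by -2.0 ± 0.42 on the log2 scale, from -1.83 in fat and 0.16 in liver (limma, adjusted p = 0.00918). It was the 1 gene of 6 called, and 0.864% of all genes tested were called with a lower effect in fat. With liver depth as a term this difference was -2.86 with an adjusted p of 0.312. In the Gipr line the conjugate gave -1.53 ± 0.74 for Angptl8 (adjusted p = 0.24) and -0.82 ± 0.26 for Vldlr (adjusted p = 0.0649), and no gene of the 6 passed while 5.59% of all genes did. In the Gipr knockout the difference was -1.75 ± 0.74 for Angptl8 and -0.05 ± 0.26 for Vldlr, with none called of the 6 and 10.3% of all genes called. Vldlr fell in both tissues of that knockout, to 0.249 of the vehicle mean in liver and 0.485 in fat. Adding 1 FPKM understates the change in liver, where Vldlr is low, so its small difference does not show equal falls. The same limit holds for its difference with the conjugate. In the Glp1r knockout 0.0% of all genes passed, with 459 of 9834 at an unadjusted p under 0.05.

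**Figure D4:**
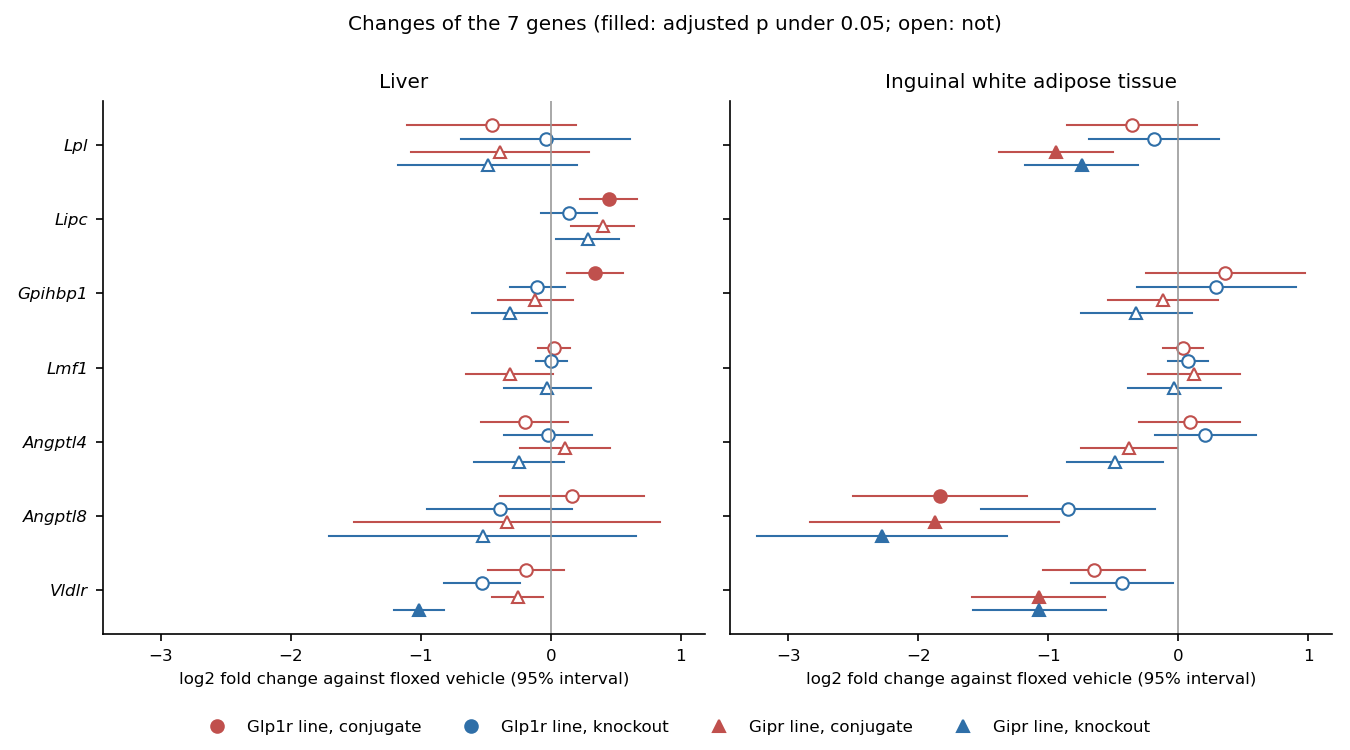
Log2 fold change of log2(FPKM + 1) against floxed vehicle with its 95% interval, in liver (left) and inguinal fat (right), with circles for the Glp1r line and triangles for the Gipr line, filled where the adjusted p was under 0.05. Filled points are Lipc and Gpihbp1 (Glp1r conjugate) and Vldlr (Gipr knockout) in liver, and Lpl, Vldlr and Angptl8 in fat.

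Among 20 partners of the lipase, none of them one of the 7 genes, Apoc2 fell in 5 contrasts. Apoc2 encodes the cofactor that lipoprotein lipase needs for activity. Its log2 fold change was -0.64 ± 0.16 with the conjugate in Glp1r liver (limma, adjusted p = 0.0211), -1.06 ± 0.19 in Gipr liver (adjusted p = 0.0079) and -1.33 ± 0.19 in GiprSyn-/- liver (adjusted p = 0.000426). In Gipr fat it was -0.71 ± 0.18 with the conjugate (adjusted p = 0.0299) and -0.87 ± 0.18 in the knockout (adjusted p = 0.00887).

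The other partners moved mainly in liver. Of all genes tested, 4.69% fell and 5.68% rose with the conjugate in Glp1r liver. The shares were 3.17% and 1.17% with the conjugate in Gipr liver and 8.92% and 1.44% in its knockout. In fat, 1.08% fell and 2.31% rose with the conjugate in the Glp1r line. In Gipr fat the shares were 2.76% and 4.26% with the conjugate and 5.67% and 6.61% in the knockout. The list counts here and below stand beside these shares. In Glp1r liver with the conjugate 3 of 19 partners fell and none rose, with Pltp, the phospholipid transfer protein, at -1.42 ± 0.23. In Gipr liver with the conjugate 2 of 19 fell, and Pcsk6, a protease that cleaves lipases and angiopoietin-like proteins, was the second at -0.45 ± 0.10. In the Gipr knockout liver 6 of 19 fell and 1 rose, with Lipg, endothelial lipase, at -0.74 ± 0.16 and Sort1, a sorting receptor, at 1.0 ± 0.18. The median over the list there was -0.28, against -0.11 over all genes. In Gipr fat Apoe, an apolipoprotein of remnants, rose by 1.22 ± 0.32 with the conjugate, as the 1 of 16 that rose.

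Of 15 genes of fatty acid uptake and release tested in liver, 2 fell and 1 rose with the conjugate in the Glp1r line, and 1 fell with the conjugate in the Gipr line. Cd36, a fatty acid transporter, fell in liver with the conjugate in the Glp1r line (-1.07 ± 0.21) and in the Gipr line (-1.33 ± 0.22), and in the Gipr knockout (-1.99 ± 0.22). In that knockout 6 of 15 fell and none rose, among them G0s2, an inhibitor of adipose triglyceride lipase (-1.54 ± 0.44), Fabp4 (-1.03 ± 0.29) and Mgll, monoglyceride lipase (-0.82 ± 0.12). In Gipr fat Fabp5, a fatty acid binding protein, fell by 1.33 with the conjugate and by 1.39 in the knockout on the log2 scale. Acsl1, an acyl-CoA synthetase, had log2 fold changes of -0.74 ± 0.16 and -0.71 ± 0.16 there, both called. In Glp1r fat none of 14 passed.

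Angptl4 is known as a PPAR target, and other PPAR targets were read beside it. With the conjugate 5 of 15 fell and 1 rose in Glp1r liver, led by Fgf21, a liver hormone (-1.21 ± 0.25), and Pdk4, a kinase that restrains glucose oxidation (-1.08 ± 0.17). In Gipr liver 3 of 15 fell with the conjugate and none rose. In GiprSyn-/- liver 13 of 15 fell and none rose, with Cyp4a14 at -5.42 ± 0.43, Cyp4a10 at -2.90 ± 0.33, Vnn1 at -1.74 ± 0.27 and Plin2 at -1.36 ± 0.16. Angptl4 itself had -0.25 ± 0.16 there and did not pass (limma, adjusted p = 0.397). In fat Vnn1, a pantetheinase, rose by 1.39 ± 0.34 with the conjugate in the Glp1r line, and in the Gipr line by 1.42 ± 0.19 with the conjugate and 1.72 ± 0.19 in the knockout. In the same fat contrasts of the Gipr line Plin2, a lipid droplet protein, fell by 0.83 and 1.21 on the log2 scale, so the list moved both ways.

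Angptl8 and Vldlr were set beside 15 insulin-responsive and lipogenic genes. In Glp1r fat with the conjugate 4 of 13 fell and none rose, led by Acss2 (-1.27 ± 0.22) and Fasn, fatty acid synthase (-1.08 ± 0.21). In Gipr fat 7 of 13 fell and 1 rose with the conjugate, with Acss2 at -1.56 ± 0.22, Fasn at -1.51 ± 0.30, Pnpla3 at -1.32 ± 0.29 and Me1, malic enzyme, at -1.31 ± 0.25. In the knockout 5 fell and 1 rose, with Insig1 at -1.22 ± 0.21 among those that fell and Thrsp at 0.95 ± 0.22 as the 1 that rose. The list medians were -0.58 and -0.53, against 0.11 and 0.09 over all genes. In liver 5 of 14 fell and 1 rose with the conjugate in the Glp1r line, none passed with the conjugate in the Gipr line, and 8 of 14 fell in the Gipr knockout, led by Scd1 (-2.96 ± 0.50) and Me1 (-2.72 ± 0.31). Angptl8 in liver did not pass in any of these contrasts.

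Of 10 glucocorticoid targets, 1 passed in Glp1r fat with the conjugate (Dusp1, a phosphatase, 0.87 ± 0.19) and 1 in the Gipr knockout fat (Sgk1, a kinase, -0.64 ± 0.14). In Gipr liver Lcn2, lipocalin-2, had log2 fold changes of -2.19 ± 0.59 with the conjugate and -2.81 ± 0.59 in the knockout, both called. Mt2, a metallothionein, fell in that knockout, at -2.90 ± 0.70.

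**Figure D5:**
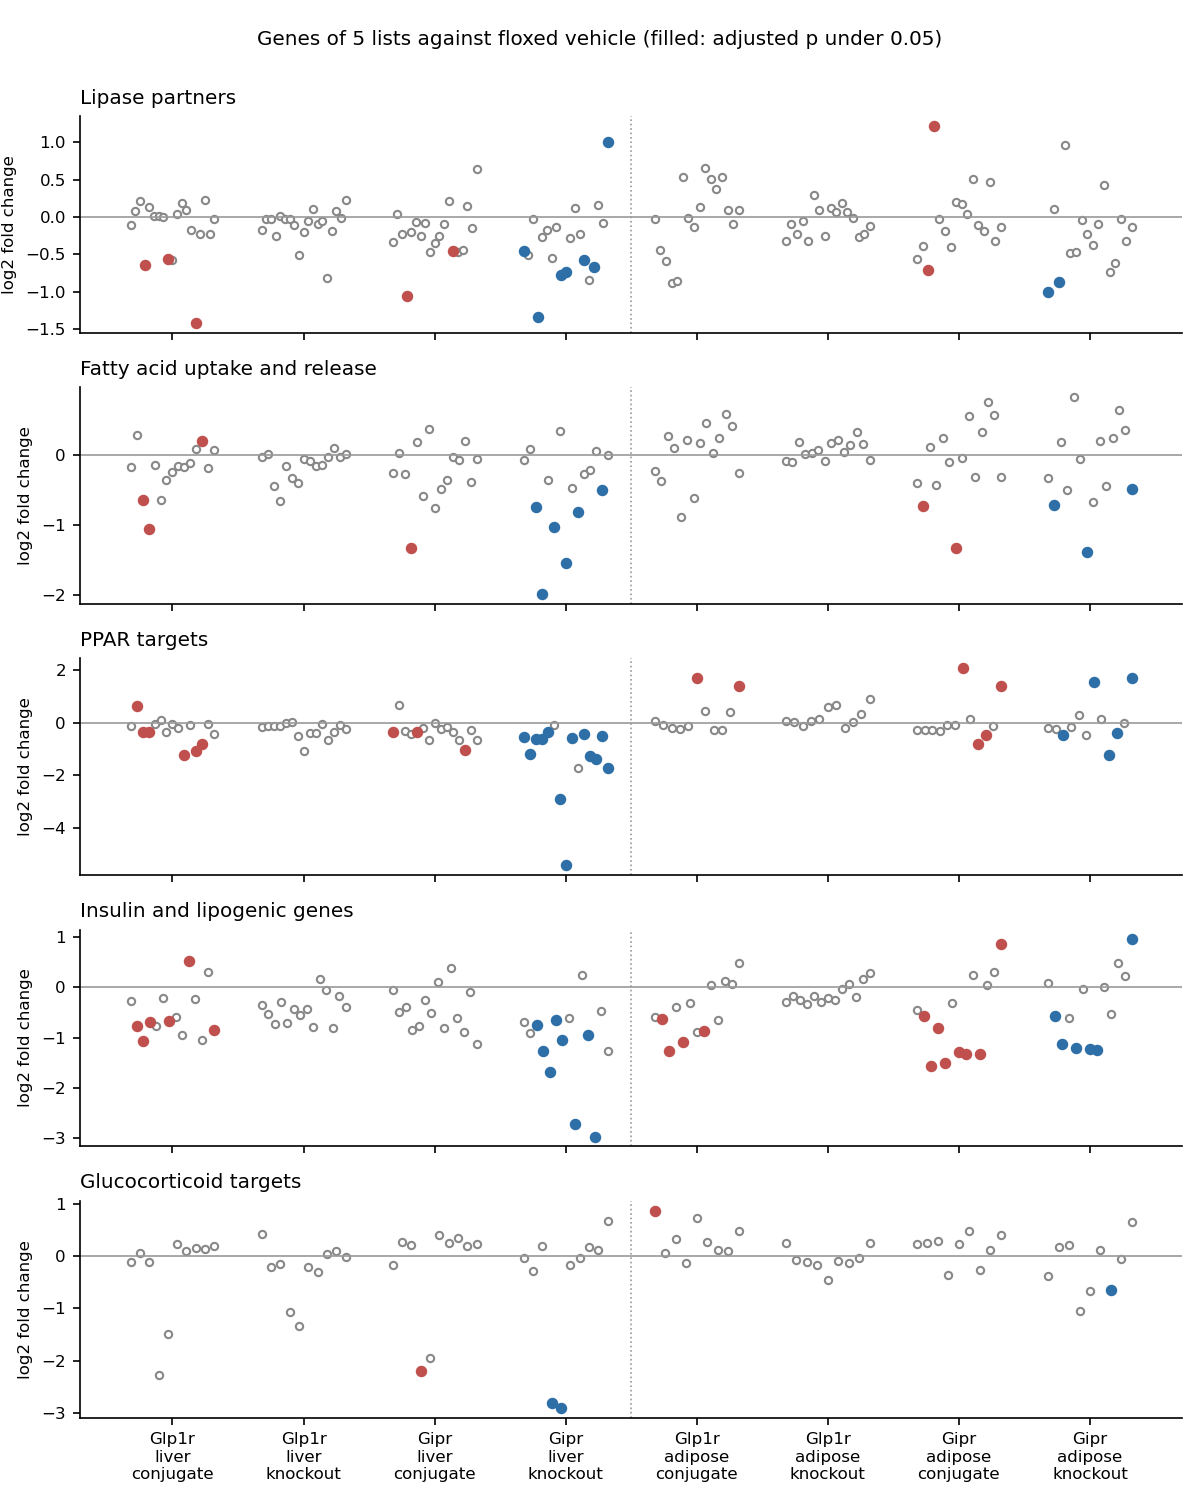
Log2 fold change against floxed vehicle for the tested genes of 5 lists, with 1 point per gene, liver contrasts left of the dotted line and fat contrasts right of it, and filled points at an adjusted p under 0.05. The median of the lipogenic list is below 0 in all 8 contrasts, and PPAR targets fall together in the Gipr knockout liver.

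Finally, for each gene the 3 genes of most similar pattern were taken over the 30 libraries of the tissue where it is higher, with each table centred on its own mean. These correlations of log2(FPKM + 1) include the group differences and are descriptions. In fat Lpl was most like Rnf11 (r = 0.971), Mmd (0.952) and Clmp (0.951). Vldlr was most like Cyb5b (0.968), Slc16a12 (0.958) and Nln (0.956). Lpl and Vldlr themselves reached 0.938, and Vldlr ranked 7 of 11539 genes for Lpl. Gpihbp1 in fat was most like Cldn15 (0.92), C1qtnf9 (0.919) and Myl9 (0.908), and its correlation with Lpl was 0.357. Angptl4 in fat was most like Hsd17b4 (0.901), Cd36 (0.898) and Adgra3 (0.879). In liver Lipc was most like Nat8f1 (0.887), Il1rap (0.867) and Avpr1a (0.867), and Lmf1 like Tars2 (0.843), Cnnm3 (0.818) and Sars2 (0.817). Angptl8 in liver was most like Tob2 (0.79), Nags (0.787) and Grb7 (0.772).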

How the data were processed

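Bulk RNA was sequenced from liver and inguinal fat, with TruSeq stranded mRNA libraries per the labels' protocols. The authors deposited FPKM, made with RSEM per the submitters' processing notes. The sources used here do not give its version, the aligner, build, annotation or use of strand. The labels call the 5 libraries of a group biological replicates. Their replicate numbers were not used as pairs.

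The log2(FPKM + 1) values were fitted with limma 3.58.1 under R 4.3.3. A model with the 3 groups of a table and a mean-variance trend was fitted to genes with at least 5 of 15 libraries at 1 FPKM, and p-values were two-sided with Benjamini-Hochberg adjustment. Errors of fold changes are standard errors, and errors of FPKM are SD over 5 libraries. Interactions were fitted over 30 libraries, using genes tested in both tables. Depth was estimated from the lowest values, taken as 1 fragment. The fitting was tested on simulated data.

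The 7 genes and the lists were chosen with earlier results of these data known. Named genes are the 7, up to 4 called genes of each list with the largest change in a contrast, and the 3 genes most similar in pattern, without unnamed gene models. Motif words and ratios to Adipoq were added after the values had been seen. Some genes that the rule selects are not reported here.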

Additional observations from a re-analysis of the deposited data

Results flagged for a closer look

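In 78 groups of 5 libraries (7 genes in liver, 6 in fat), 10 had a library that stood apart from the other 4 by Dixon's criterion; chance gives about 1 in 20 groups. In Glp1r fat, vehicle replicate 2 was low for Lpl (1711 FPKM, against 3539 to 4077) and for Vldlr (24.6, against 44.3 to 49.3); its B cell score was 6.70. Vldlr was high in conjugate replicate 2 (39.5, against 21.4 to 24.2) and knockout replicate 2 (34.2, against 28.4 to 29.8) of the same table, and Angptl4 in conjugate replicate 4 (283, against 218 to 237). In Gipr fat, Gpihbp1 was low in vehicle replicate 2 (211.1, against 248.6 to 258.4 FPKM). In Glp1r liver, Lpl was high in conjugate replicate 3 (4.82, against 1.14 to 1.68), and Angptl8 was high in conjugate replicate 1 (78.2, against 27.4 to 41.3) and low in vehicle replicate 3 (29.4, against 36.4 to 38.0). In Gipr liver, Gpihbp1 was high in knockout replicate 5 (26.6, against 16.5 to 18.7), the library with a macrophage score of 6.01.

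The effect of the conjugate on Angptl8 in the Glp1r line differed between the tissues, by -2.0 on the log2 scale for fat minus liver in limma's interaction test (adjusted p = 0.00918).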

How the results depend on the processing

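No called value turned its sign. Of 2333 alternative values for the 7 genes, 2263 kept the main side of the threshold, 38 lost a call and 32 gained one; 149 values, uncalled both ways, turned sign. The number of the 7 genes called with the conjugate in Glp1r liver was 2, and 1 with no filter, a common sum of FPKM, only the groups compared or array weights, 0 with a depth term, and 1 to 2 leaving out a library. With the conjugate in Gipr liver it was 0, and 1 with quantile normalization, array weights or a pancreas term (Lipc), and 0 to 2 leaving out a library. In the Gipr liver knockout it was 1, and 2 with quantile normalization or a pancreas term, 3 with array weights, 0 with a filter at 5 FPKM, which removes Vldlr, and 1 to 2 leaving out a library. In the Glp1r liver knockout leaving out a library gave 0 to 1. With the conjugate in Glp1r fat the number was 1, and 3 with array weights or without the B cell-rich libraries, and 1 to 3 leaving out a library; in the knockout it was 0, and 1 with array weights. In Gipr fat it was 3 in each contrast, 4 with array weights (Angptl4 added), and 2 with quantile normalization, without the higher library numbers or without the B cell-rich libraries; with no filter it was 1 with the conjugate and 2 in the knockout, and leaving out a library gave 1 to 3 and 2 to 3. For fat minus liver, the Glp1r conjugate gave 1, and 2 with no filter, array weights or without the B cell-rich libraries, and 0 with a depth term. The Gipr conjugate gave 0, and 1 without the B cell-rich libraries, 2 with array weights, and 0 to 1 leaving out a library. The Gipr knockout gave 0, and 1 with array weights or a pancreas term. Beyond filters and left-out libraries, the cause of these shifts was not tested.

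Within a table, correlations of same-numbered libraries' deviations ran from -0.843 to 0.571 and not every pair exceeded 0.1, so the numbers were not taken as pairs; same-numbered liver and fat libraries were not compared. With the replicate block the count for the Gipr conjugate, fat minus liver, was 1 (Vldlr) in place of 0. Median-of-ratios or quantile scaling moved the median over all genes by 0.121 and 0.129 in the Gipr liver knockout. The count over all genes went from 1126 to 0 with a depth term in Glp1r liver with the conjugate, and from 430 to 5556 with array weights in Glp1r fat. Values under 1 FPKM, such as Vldlr in knockout liver and Lipc in fat, rest on fewer fragments per base of transcript than higher values of the same library.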
